A study of Mus musculus with 6 samples.

Results

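Cells make cholesterol from acetyl-CoA through mevalonate and squalene, and fatty acids from the same precursor through malonyl-CoA. Both routes are controlled by the sterol regulatory element binding proteins (SREBPs), transcription factors that are held in the endoplasmic reticulum with the escort protein Scap while Insig proteins sense enough sterol, and that are released to switch on lipid genes when sterol runs low. Srebf2 acts mainly on sterol genes and Srebf1 mainly on fatty acid genes. Embryonic stem cells divide fast and need both products for new membranes.

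The genes followed here are 36 genes of cholesterol and fatty acid synthesis, chosen by name: 5 regulators, 18 genes of sterol synthesis and transport, and 13 genes of fatty acid synthesis, desaturation, elongation and activation. A probe set that names a single gene was found for 35 of the 36, and the brightest of a gene's probe sets by mean over the arrays stands for the gene. The level of Acsl1 was not analysed here. All 35 lay above the filter on low signal and were tested among 13095 genes, of 18193 genes with a single-gene probe set. The RNA came from R1 cells, a mouse embryonic stem cell line grown undifferentiated in medium with serum and leukaemia inhibitory factor (LIF). A stable short hairpin RNA (shRNA) that targets Pcl2 was present in 3 samples, and a stable shRNA with a mismatch control sequence in the other 3. Pcl2, whose gene symbol is Mtf2, is a Polycomb-like partner of Polycomb repressive complex 2, which methylates histone H3 to silence genes. The labels say that all the shRNA samples came from 1 clone, so the shRNA and the clone cannot be told apart, and p-values measure the spread between cultures.

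Values are array signals, given for Pcl2 shRNA replicates 1, 2 and 3 and then for mismatch control replicates 1, 2 and 3. Changes are log2 fold changes of Pcl2 shRNA over mismatch control on the log2(signal + 7) scale with a standard error (SE), n = 3 arrays per group, and a change is called where limma's adjusted p over all genes is below 0.05. Precision is limited by this number of arrays. Mtf2 had signals of 1048, 1167 and 869.6 in the Pcl2 shRNA samples, against 1951, 1513 and 1704 in the controls, and the log2 fold change was -0.74 (SE 0.17, adjusted p = 0.0157). Its call was lost without Pcl2 shRNA replicate 3 (adjusted p = 0.0574) and without mismatch control replicate 1 (adjusted p = 0.0519). Across all genes 1652 of 13095 were called, or 12.6%, with 4.46% higher and 8.16% lower, and the median log2 fold change was 0.02. The 10 embryonic stem cell markers were above background on every array, with a summed signal of 37188 to 47698 in Pcl2 shRNA and 23847 to 30721 in control samples. All 10 had a log2 fold change above 0, and 5 rose (Sox2, Zfp42, Dppa4, Tdgf1 and Esrrb). In bulk RNA, fewer cells of a type and less RNA per cell cannot be told apart.

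Promoters are shown first for some genes of both routes. Hmgcs1 and Mvk, from the early sterol route, were not called. Sc5d is the sterol enzyme that fell, and Elovl1, Acsl3, Fads2 and Acsl4 are fatty acid genes that fell. No promoter was at hand for Scd2, which also fell. Each line gives the 250 bases before an annotated start of transcription, from RefSeq on GRCm38.p6, read 5′ to 3′ on the gene's strand. Capitals mark TCACNCCAC, a form of the sterol regulatory element bound by SREBPs, and CCAAT, the box bound by NF-Y, a factor that works beside SREBPs, on either strand.
Hmgcs1 (chr13:119690101-119690350, plus strand): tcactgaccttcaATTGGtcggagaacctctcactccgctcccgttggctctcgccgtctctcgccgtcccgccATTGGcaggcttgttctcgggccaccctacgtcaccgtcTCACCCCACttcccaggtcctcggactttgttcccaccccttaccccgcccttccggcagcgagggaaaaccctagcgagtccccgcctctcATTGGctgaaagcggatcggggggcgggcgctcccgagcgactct
Mvk (chr5:114444019-114444268, plus strand): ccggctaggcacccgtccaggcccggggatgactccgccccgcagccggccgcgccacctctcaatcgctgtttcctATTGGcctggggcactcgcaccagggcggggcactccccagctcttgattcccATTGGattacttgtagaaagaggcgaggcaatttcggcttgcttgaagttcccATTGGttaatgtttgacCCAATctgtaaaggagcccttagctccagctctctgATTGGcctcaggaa
Sc5d (chr9:42264301-42264550, minus strand): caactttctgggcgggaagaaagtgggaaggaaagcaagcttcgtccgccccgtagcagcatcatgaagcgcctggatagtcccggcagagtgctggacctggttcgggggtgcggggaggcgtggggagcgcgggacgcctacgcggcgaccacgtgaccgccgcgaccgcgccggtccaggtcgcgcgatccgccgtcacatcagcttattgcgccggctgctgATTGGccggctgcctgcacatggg
Elovl1 (chr4:118427843-118428092, plus strand): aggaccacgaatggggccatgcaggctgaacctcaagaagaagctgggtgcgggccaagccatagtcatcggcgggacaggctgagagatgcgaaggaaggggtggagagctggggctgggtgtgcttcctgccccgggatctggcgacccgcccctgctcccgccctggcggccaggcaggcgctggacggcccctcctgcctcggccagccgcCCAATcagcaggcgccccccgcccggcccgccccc
Acsl3 (chr1:78657575-78657824, plus strand): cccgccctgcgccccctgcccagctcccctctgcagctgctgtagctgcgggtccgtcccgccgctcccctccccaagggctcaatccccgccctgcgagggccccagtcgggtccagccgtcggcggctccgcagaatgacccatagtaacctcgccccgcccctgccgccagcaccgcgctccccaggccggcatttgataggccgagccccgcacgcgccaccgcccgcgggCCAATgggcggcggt
Fads2 (chr19:10101504-10101753, minus strand): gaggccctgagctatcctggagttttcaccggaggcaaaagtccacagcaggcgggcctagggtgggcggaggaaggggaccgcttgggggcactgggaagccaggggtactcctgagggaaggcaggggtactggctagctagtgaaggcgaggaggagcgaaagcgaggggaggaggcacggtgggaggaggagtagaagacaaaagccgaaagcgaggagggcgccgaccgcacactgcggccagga
Acsl4 (chrX:142390536-142390785, minus strand): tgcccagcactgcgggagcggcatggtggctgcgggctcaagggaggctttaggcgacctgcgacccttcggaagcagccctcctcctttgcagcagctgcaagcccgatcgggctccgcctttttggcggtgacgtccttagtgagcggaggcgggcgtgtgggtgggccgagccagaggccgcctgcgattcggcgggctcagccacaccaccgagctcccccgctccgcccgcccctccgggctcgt
Hmgcs1 holds 1 sterol element and 3 CCAAT boxes in these bases, and Mvk 5 CCAAT boxes. Sc5d, Elovl1 and Acsl3 hold 1 CCAAT box each, while Fads2 and Acsl4 hold neither motif in the bases shown. For Elovl1 the more upstream of its 2 annotated starts is printed.

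Sterol genes with a promoter at hand were alike in having a CCAAT box in at least 1 window, though the number and place of the boxes differed. In windows of 300 bases (250 before and 50 after the start, both strands searched), CCAAT was found for 14 of the 14 sterol genes with a promoter in the table, for 6 of 10 fatty acid genes and 4 of 5 regulators, and for 42.6% of the 10576 tested genes with a promoter. GGGCGG, the box bound by Sp1, was found for 13 of the 14 sterol genes, 6 of the 10 fatty acid genes and 66.8% of tested genes. TCACNCCAC was found for Hmgcs1 and Acsl1, whose promoter is in the table, and for 1.46% of tested genes. CACGTG, an E-box that SREBPs also bind, was found for 3 of the 14 sterol genes, 1 of the 10 fatty acid genes, 2 of the 5 regulators and 11.6% of tested genes. A gene with several annotated starts had several windows (a mean of 1.21 for the sterol genes and 1.28 for tested genes). Each motif was counted on its own, so matches of different motifs may share bases, and a match is not a bound site.

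Taking all 35 genes, 6 fell and none rose, or 17.1% called against 12.6% of all genes (8.16% lower and 4.46% higher). The log2 fold change was below 0 for 30 of the 35, with a median of -0.31, against 47.6% of all genes below 0. The 6 genes were 1 of 18 sterol genes, or 5.56%, and 5 of 12 fatty acid genes, or 41.7%, against 8.16% of all genes lower. The sterol share was thus not above that of all genes. No regulator was called (none at an unadjusted p below 0.05). The groups did not overlap for 11 of the 35, 10 lower and 1 higher, against 31.2% of all genes in either direction. With the replicate number as a block, a fit that compares same-numbered samples, 10 of the 35 were lower and 1 higher, against 13.8% and 9.97% of all genes, or 23.8% in either direction. Without mismatch control replicate 3, 22 of the 35 lay below 0 and the median was -0.10, while the share of all genes below 0 was 47.3%. Without Pcl2 shRNA replicate 3, 32 of the 35 lay below 0 and the median was -0.38, with 49.8% of all genes below 0.

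**Figure D1:**
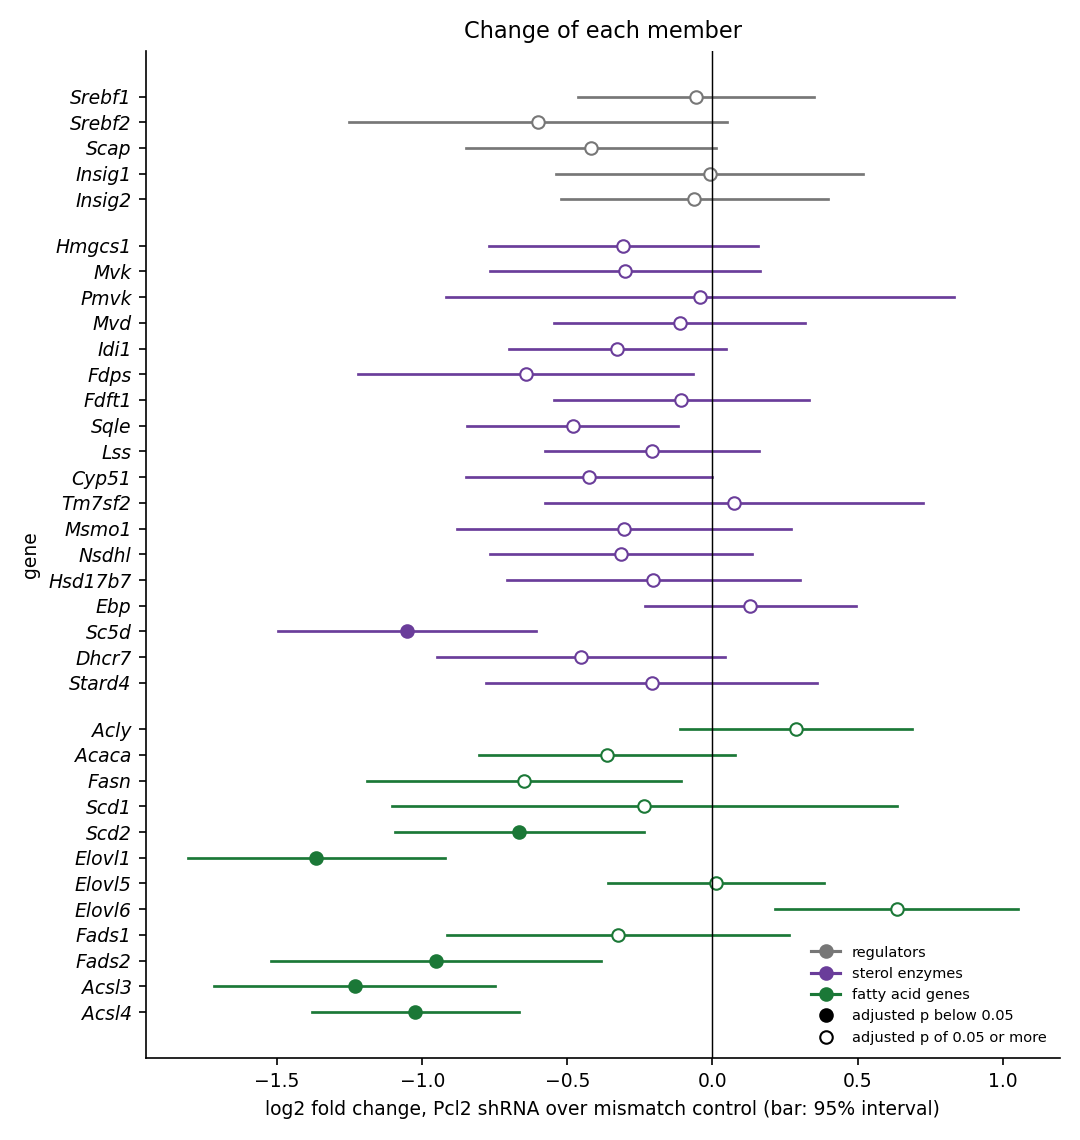
Log2 fold change of Pcl2 shRNA over mismatch control (x axis) for each of the 35 genes (y axis), as points with 95% intervals from the fit over all genes, n = 3 arrays per group, filled where the adjusted p is below 0.05. The 6 filled points, Sc5d, Scd2, Elovl1, Fads2, Acsl3 and Acsl4, all lie left of 0, while Elovl6 is the member farthest to the right, at 0.64.

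The regulators were not called. Srebf2, the SREBP that acts mainly on sterol genes, had signals of 306, 540.2 and 672 in Pcl2 shRNA samples, against 534, 777 and 951 in controls. Pcl2 shRNA replicates 2 and 3 exceeded the lowest control, and each Pcl2 shRNA sample was below the control of the same number, by log2 0.79, 0.52 and 0.50. The log2 fold change was -0.60 (SE 0.29, adjusted p = 0.228), and with the replicate block it passed (SE 0.12, adjusted p = 0.00706). A second probe set gave -0.34.

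Scap, the escort of SREBPs to the Golgi, had signals of 159, 161 and 145 in Pcl2 shRNA samples, against 263, 177 and 196 in controls. The groups did not overlap, as for 16.7% of all genes in the same direction, and the change did not pass (log2 fold change -0.42, SE 0.19, adjusted p = 0.204). Srebf1 gave -0.06, with a 95% interval of -0.46 to 0.35, Insig1, itself a target of SREBPs in other cells, gave -0.01 (-0.54 to 0.52), and Insig2 gave -0.06 (-0.52 to 0.40). These intervals do not exclude changes of up to about the size given by their ends. The other 2 probe sets of Insig2 gave -0.01 and -0.02.

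**Figure D2:**
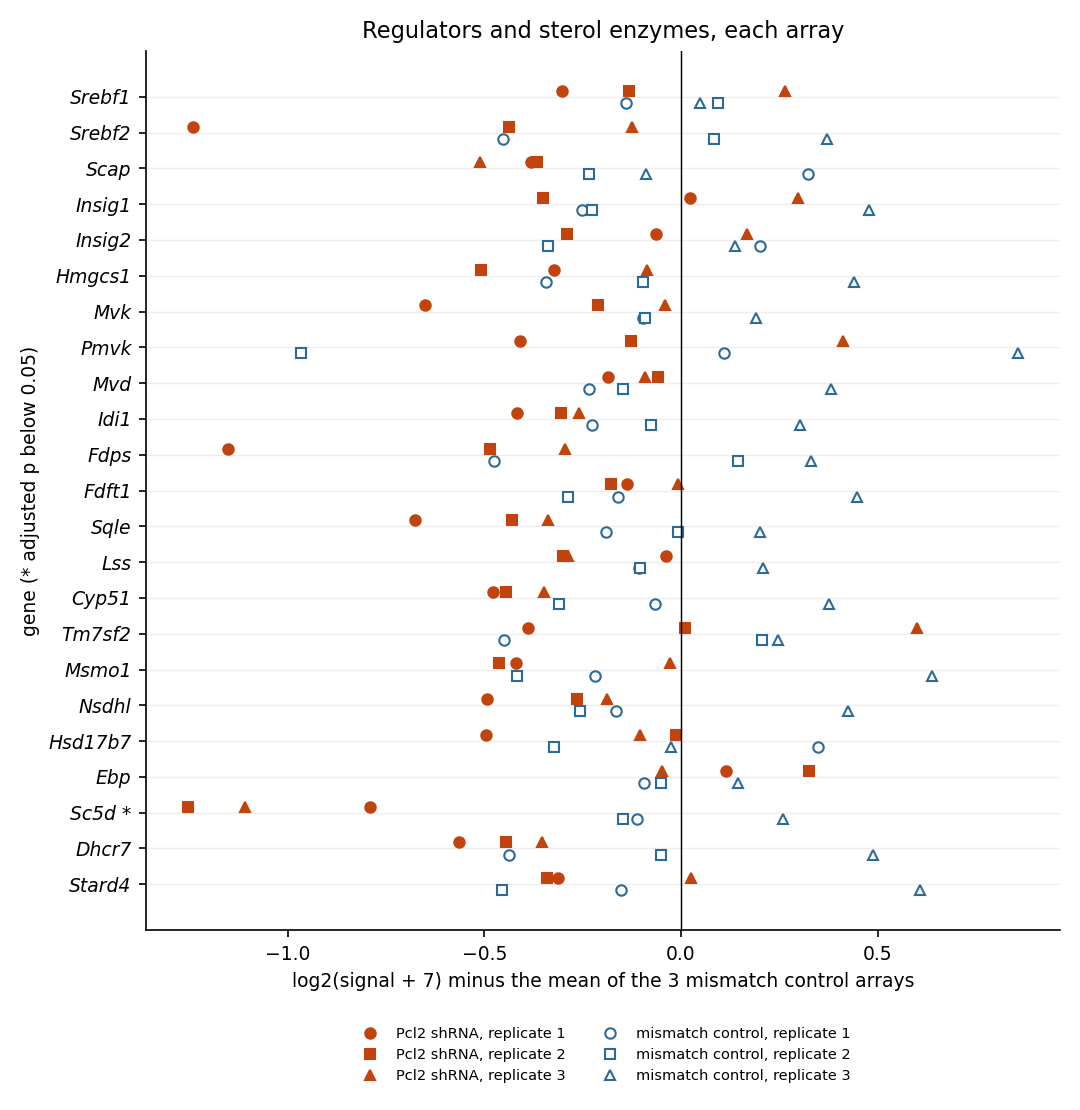
Log2(signal + 7) of each regulator and sterol gene (y axis) on each array, minus the mean of the 3 mismatch control arrays (x axis), with Pcl2 shRNA arrays as filled and mismatch control arrays as open symbols and the replicate number as the shape. For Sc5d the filled symbols lie apart to the left, and in 17 of the 18 sterol genes the open triangle of control replicate 3 is the farthest right of the controls.

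Among the genes of the mevalonate route, from acetyl-CoA to farnesyl diphosphate, none was called. Fdps, which makes farnesyl diphosphate, came nearest, with signals of 862, 1372 and 1567 in Pcl2 shRNA samples, against 1382, 2129 and 2419 in controls. The Pcl2 shRNA samples were below their same-numbered controls by log2 0.68, 0.63 and 0.62, a nearly equal step, although the groups overlapped. The log2 fold change was -0.64 (SE 0.26, adjusted p = 0.143), which passed with the replicate block (SE 0.11, adjusted p = 0.00334).

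Idi1, which isomerises the isoprenoid unit, had signals of 1130.2, 1223 and 1264 in Pcl2 shRNA samples, against 1291, 1435 and 1868 in controls. All Pcl2 shRNA arrays were lower, but by less than the test resolved (log2 fold change -0.33, SE 0.17, adjusted p = 0.255). Hmgcs1, which makes HMG-CoA, had signals of 2581, 2269 and 3040.02 in Pcl2 shRNA samples, against 2544, 3023 and 4387 in controls, with the groups overlapping (log2 fold change -0.31, SE 0.21, adjusted p = 0.407). Mevalonate is then phosphorylated and decarboxylated by Mvk (-0.30), Pmvk (-0.04) and Mvd (-0.11), and none of these passed. Pmvk was the most uneven of them, with 158 in control replicate 2 and 578 in control replicate 3, and its value was 0.39 without control replicate 3.

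From squalene to cholesterol, Sc5d was the gene that fell. Sc5d encodes a sterol desaturase of the last steps, and had signals of 146, 104 and 115 in Pcl2 shRNA samples, against 237, 231 and 309 in controls. The highest Pcl2 shRNA value was well under the lowest control value. The mean was 122 ± 21.7 in Pcl2 shRNA and 259 ± 43.1 in control samples (SD, n = 3 each), and the log2 fold change was -1.05 (SE 0.20, adjusted p = 0.00697), or 2.07-fold lower. It was called in each of the 6 fits without 1 array, at -1.18 to -0.92. Its 2 dimmer probe sets gave -0.26 and -0.46, and with the mean of its probe sets the value was -0.59 and was not called (adjusted p = 0.134).

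Sqle, squalene epoxidase, a rate-limiting step of the route, had signals of 807, 959.6 and 1023 in Pcl2 shRNA samples, against 1133, 1287 and 1488 in controls. The groups did not overlap, and the change missed the threshold (log2 fold change -0.48, SE 0.16, adjusted p = 0.0857). With the replicate block it passed (adjusted p = 0.0142). Cyp51, the lanosterol demethylase, had signals of 401, 410.4 and 439.8 in Pcl2 shRNA samples, against 536, 452 and 731 in controls. Its groups did not overlap either, as for 16.7% of all genes in the same direction, and it did not pass (log2 fold change -0.42, SE 0.19, adjusted p = 0.192). The dimmer probe sets of Cyp51 gave -0.09 and -0.19, with overlapping groups.

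Dhcr7, the last reductase on the way to cholesterol, had signals of 374, 407 and 434 in Pcl2 shRNA samples, against 409, 538 and 784 in controls. Pcl2 shRNA replicate 3 alone exceeded the lowest control, and the log2 fold change of -0.45 (SE 0.22, adjusted p = 0.233) did not pass. The 3 enzymes that strip methyl groups from lanosterol's ring gave -0.30 (Msmo1), -0.32 (Nsdhl) and -0.20 (Hsd17b7). Squalene synthase Fdft1 gave -0.11, lanosterol synthase Lss -0.21 and Stard4, which carries cholesterol between membranes, -0.21. The sterol isomerase Ebp (0.13) and the sterol reductase Tm7sf2 (0.07) were the 2 sterol genes above 0, and none of these 8 genes passed, with adjusted p from 0.373 to 0.907.

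Sterol genes shared an array pattern that did not follow the groups alone. Pcl2 shRNA replicate 3 was the highest of its group for 13 of the 18 sterol genes, against 41.1% of all genes. Pcl2 shRNA replicate 1 was the lowest for 11 of the 18, against 41.5% of all genes. Control replicate 3 was the highest control for 17 of the 18, against 38.1% of all genes. Averaged over the 18 genes, the log2 values stood at -0.29, -0.16 and 0.01 in Pcl2 shRNA replicates 1 to 3 and at -0.02, -0.04 and 0.51 in control replicates 1 to 3, each relative to the gene's mean over the 6 arrays. Over all genes the corresponding means lay between -0.06 and 0.06. Without control replicate 3 the median log2 fold change of the sterol genes was -0.10 and 11 of 18 were below 0, against -0.30 and 16 of 18 with all arrays. That fit kept Pcl2 shRNA replicate 3, the sample of the same number. Without Pcl2 shRNA replicate 3 instead, the median was -0.37 and 17 of 18 were below 0. No fit left out both arrays. Compared by replicate number, 9 of the 18 were lower in Pcl2 shRNA samples in all 3 comparisons, against 27.0% of all genes, and none was higher in all 3, against 27.3%.

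**Figure D3:**
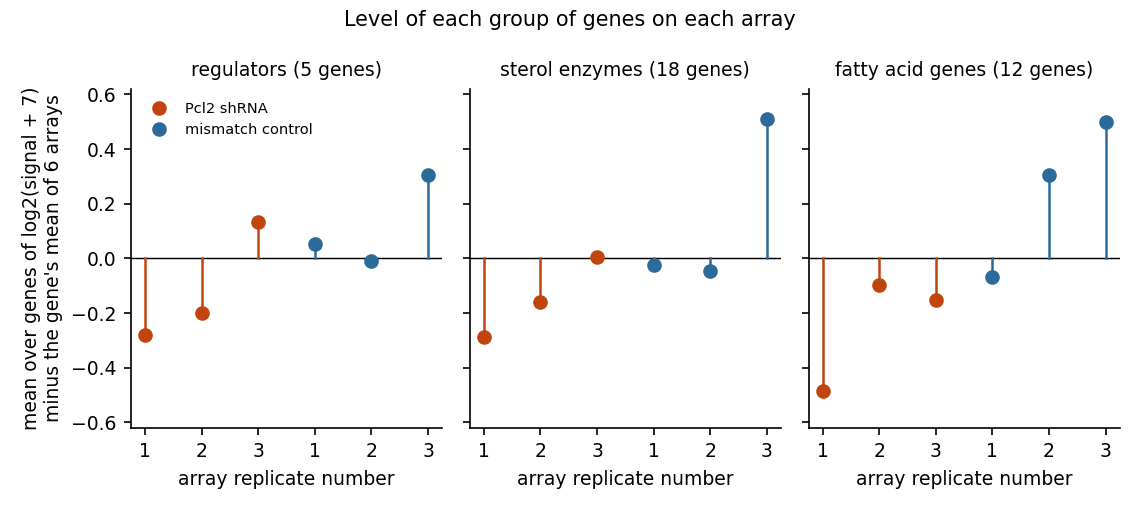
Mean over the regulators (left), sterol genes (middle) and fatty acid genes (right) of log2(signal + 7) minus each gene's mean over the 6 arrays (y axis), for each array by replicate number (x axis), Pcl2 shRNA in orange and mismatch control in blue. Pcl2 shRNA replicate 1 is the lowest array in all 3 panels, at -0.49 for the fatty acid genes, and control replicate 3 is the highest, at 0.51 for the sterol genes.

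**Figure D4:**
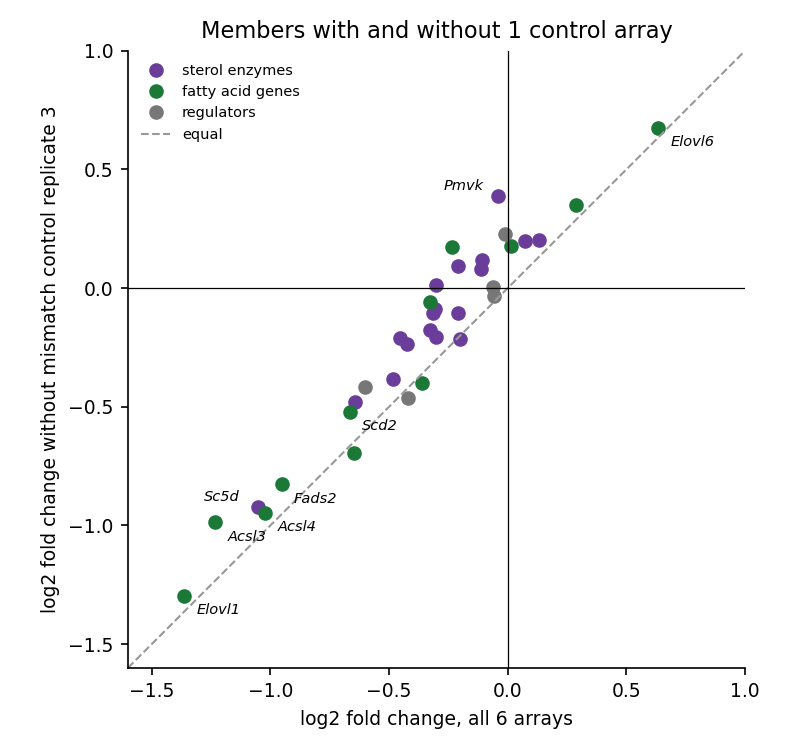
Log2 fold change of each of the 35 genes with all 6 arrays (x axis) and without mismatch control replicate 3 (y axis), coloured by group of genes, with the dashed line where both are equal. Most sterol genes lie above the line and nearer to 0, with Pmvk moving to 0.39, while Elovl1 (-1.30), Acsl3 (-0.98), Acsl4 (-0.95) and Sc5d (-0.92) stay far below 0.

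Of the fatty acid genes 5 of 12 fell, or 41.7%, against 8.16% of all genes. Their median log2 fold change was -0.51, and 9 of the 12 were below 0. The 5 were the elongase Elovl1, the desaturases Scd2 and Fads2 and the acyl-CoA synthetases Acsl3 and Acsl4. The number that fell was 3 without any one of Pcl2 shRNA replicate 1 or 3 or control replicate 2 or 3, and also with no signal filter, no eBayes trend or array weights, with Scd2 and Fads2 lost each time.

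**Figure D5:**
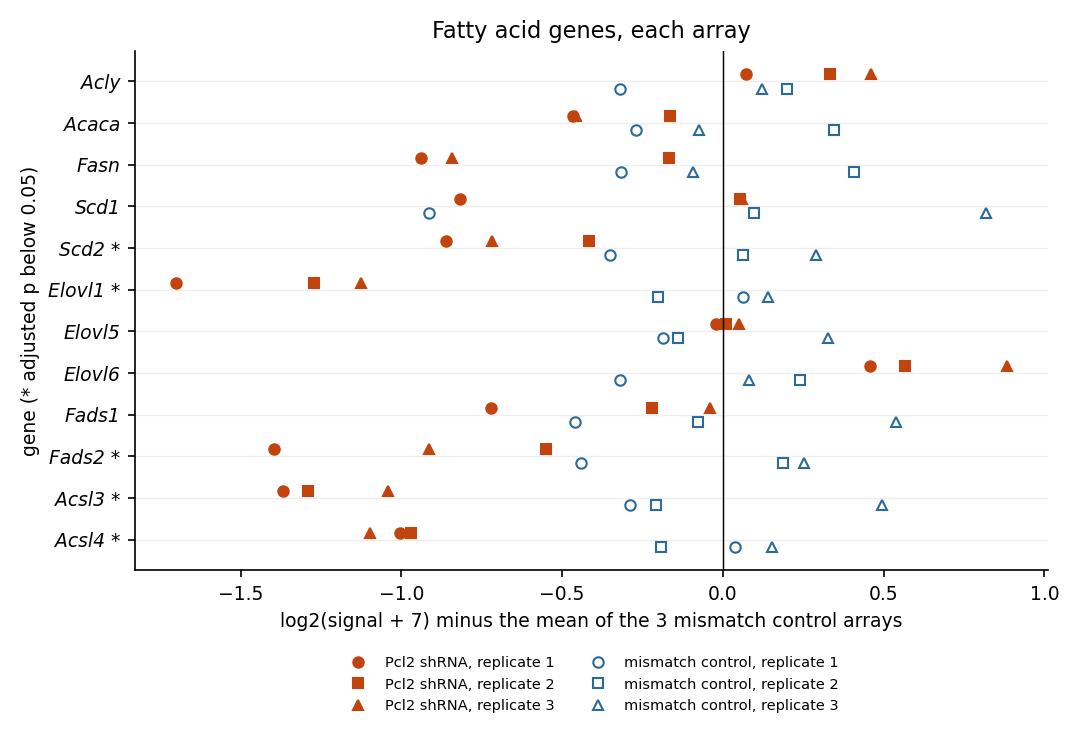
Log2(signal + 7) of each fatty acid gene (y axis) on each array, minus the mean of the 3 mismatch control arrays (x axis), with Pcl2 shRNA arrays as filled and mismatch control arrays as open symbols and the replicate number as the shape. The filled symbols of Elovl1, Acsl3, Acsl4, Fads2 and Scd2 lie left of all open ones, and those of Elovl6 lie right of all open ones. Pcl2 shRNA replicate 1 is the lowest of its group in 11 of the 12 genes, against 41.5% of all genes.

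Acly, which makes cytosolic acetyl-CoA from citrate, had signals of 2593, 3113 and 3401 in Pcl2 shRNA samples, against 1974, 2834 and 2687 in controls. Each Pcl2 shRNA sample was above its same-numbered control, the groups overlapped, and the log2 fold change of 0.29 (SE 0.18, adjusted p = 0.358) did not pass. Acaca, the carboxylase that makes malonyl-CoA, went the other way in sign, at -0.36 (SE 0.20, adjusted p = 0.291). Fasn, the synthase that builds palmitate, had signals of 702, 1204 and 750.1 in Pcl2 shRNA samples, against 1085, 1796 and 1268 in controls. Its same-number steps were -0.62, -0.57 and -0.75, and its log2 fold change of -0.65 (SE 0.24, adjusted p = 0.114) passed with the replicate block (SE 0.12, adjusted p = 0.00346).

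Of the elongases of this list Elovl1 fell, and Elovl5 and Elovl6 were not called. Elovl1, which extends saturated and monounsaturated chains to very long ones, had signals of 111, 152 and 169 in Pcl2 shRNA samples, against 393, 326 and 415 in controls. The highest Pcl2 shRNA array lay far below the lowest control array. Its mean was 144 ± 29.7 in Pcl2 shRNA and 378 ± 46.4 in control samples (SD, n = 3 each), and the log2 fold change was -1.37 (SE 0.20, adjusted p = 0.00176), or 2.58-fold lower, the largest among the 35 genes. The other probe sets above the filter gave -1.36 and -1.24, and it was called under all 20 alternatives, at -1.49 to -1.20.

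Elovl6, which extends palmitate to stearate, had signals of 1000.15, 1079.8 and 1346 in Pcl2 shRNA samples, against 580.3, 859 and 770.1 in controls. All Pcl2 shRNA arrays were higher, as for 14.5% of all genes, and the log2 fold change of 0.64 (SE 0.19, adjusted p = 0.0529) just missed the threshold. It passed with the replicate block (adjusted p = 0.00816), without control replicate 2 (adjusted p = 0.0399), with array weights (adjusted p = 0.0253), with the filter at the 60th percentile (adjusted p = 0.0479) and with signals floored at background (adjusted p = 0.0466). Its other 2 probe sets gave 0.48 and 0.99. Elovl5, an elongase of polyunsaturated chains, gave 0.01, with a 95% interval of -0.36 to 0.38, and its second probe set also gave 0.01.

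Desaturases put double bonds into fatty acids. Scd2, a stearoyl-CoA desaturase that makes monounsaturated fatty acids, had signals of 2853, 3879 and 3147 in Pcl2 shRNA samples, against 4065, 5408 and 6333 in controls. The groups lay next to each other without overlap, and the log2 fold change was -0.67 (SE 0.19, adjusted p = 0.0488). The call sat at the threshold. It was lost without any one of Pcl2 shRNA replicate 1, 2 or 3 or control replicate 2 or 3 (adjusted p = 0.0662 to 0.171), and with median centring, no signal filter, no eBayes trend or array weights (adjusted p = 0.0585 to 0.0998). The other 2 probe sets gave -0.87 and -0.83. Its close paralogue Scd1 had signals of 254, 470.3 and 473 in Pcl2 shRNA samples, against 237, 485 and 804 in controls, and the log2 fold change was -0.23 (SE 0.39, adjusted p = 0.767). The range of the controls spanned all Pcl2 shRNA values of this probe set. A second, dimmer probe set of Scd1 gave -0.49, with signals of 162, 253 and 193 in Pcl2 shRNA samples, against 199, 297 and 384 in controls.

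Fads2, which starts the desaturation of polyunsaturated fatty acids, had signals of 151, 276 and 213 in Pcl2 shRNA samples, against 298, 465 and 487 in controls. The nearest arrays of the groups were close, and the log2 fold change was -0.95 (SE 0.26, adjusted p = 0.0354), or 1.94-fold lower. It was lost without Pcl2 shRNA replicate 1 or 3 or control replicate 2 or 3 (adjusted p = 0.0719 to 0.117), and with no signal filter, the mean of probe sets, no eBayes trend or array weights (adjusted p = 0.0513 to 0.0932). Its other probe sets gave -0.91 and -0.86. Fads1, the next desaturase of the same route, gave -0.33 (SE 0.27, adjusted p = 0.497) and was lower than the same-numbered control in all 3 comparisons.

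Of the long-chain acyl-CoA synthetases, Acsl3 and Acsl4 fell, while Acsl5 (-0.49, adjusted p = 0.226) and Acsl6 (-0.39, adjusted p = 0.268) did not pass. These enzymes join coenzyme A to free fatty acids, so that the acids can be elongated, stored or built into phospholipids. Acsl4, which prefers arachidonic acid, had signals of 253, 259 and 237 in Pcl2 shRNA samples, against 528, 449 and 573 in controls. Its mean was 249.5 ± 11.6 in Pcl2 shRNA and 517 ± 62.8 in control samples (SD, n = 3 each), and the log2 fold change was -1.02 (SE 0.16, adjusted p = 0.00268). The groups were far apart, the other probe sets gave -0.83 and -0.82, and it was called under all 20 alternatives.

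Acsl3, found on lipid droplets, had signals of 348, 368 and 438 in Pcl2 shRNA samples, against 744, 786 and 1286 in controls. Control replicate 3 was the highest array, and without it the value was -0.98. With all arrays the log2 fold change was -1.23 (SE 0.22, adjusted p = 0.00486), or 2.35-fold lower. Its brightest probe set is of a kind that can match several transcripts, and without such probe sets the value was -0.94 (adjusted p = 0.0518). Its dimmest probe set gave -0.90.

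Probe sets of one gene mostly had the same sign. Of the 84 probe sets of the 35 genes, 76 lay above the filter on low signal. Of the 41 that were not the brightest of their gene, 38 had the sign of the brightest, and for the 6 genes that fell this held for 12 of 12.

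Neighbouring pathways were read from lists of other lipid genes. Of 10 tested genes around SREBP processing and its partner factors none was called by limma (2 at an unadjusted p below 0.05). Sp1, one of the partner factors, gave 0.45 (SE 0.17, adjusted p = 0.107). With the replicate block 2 of the 10 were higher, against 9.97% of all genes, Sp1 among them (adjusted p = 0.0445). The site protease Mbtps1, which cuts SREBPs, gave -0.08. Of 10 genes on other branches from mevalonate none was called (0 at an unadjusted p below 0.05), nor was any with the block, and the brightest, the prenyltransferase subunit Fnta and the ubiquinone enzyme Coq2, gave 0.01 and -0.0049.

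In sterol transport and the liver X receptor response, 1 of 15 genes rose, against 4.46% of all genes. It was Abcg1, a cholesterol exporter, with signals of 222, 239 and 297 in Pcl2 shRNA samples, against 128, 162 and 174 in controls (log2 fold change 0.68, SE 0.19, adjusted p = 0.0444). All Pcl2 shRNA arrays were higher, but the call was lost without any one of Pcl2 shRNA replicate 1, 2 or 3 or control replicate 1 or 2 (adjusted p = 0.0636 to 0.142) and with median centring, no filter or no eBayes trend (adjusted p = 0.0589 to 0.0798). With the replicate block 3 of the 15 were higher, against 9.97% of all genes.

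Other genes of fatty acid synthesis gave 2 lower of 22, or 9.09%, near the 8.16% of all genes. Elovl4, an elongase of very long chains, had signals of 47.4, 36.2 and 44.4 in Pcl2 shRNA samples, against 99.4, 102 and 80.0 in controls (log2 fold change -1.02, SE 0.21, adjusted p = 0.0108), and was lost without Pcl2 shRNA replicate 2 (adjusted p = 0.0587). Hacd1, a dehydratase of the elongation cycle, gave -0.78 (SE 0.21, adjusted p = 0.0364) and was lost without each array except control replicate 3 (adjusted p = 0.0703 to 0.123) and with quantile normalization, no filter or no eBayes trend (adjusted p = 0.0550 to 0.0593). With the replicate block 4 were lower and 1 higher, against 13.8% and 9.97% of all genes. Of 11 genes of glyceride synthesis 1 fell, again 9.09%, the acyltransferase Agpat3 (log2 fold change -0.65, SE 0.18, adjusted p = 0.0399), which was lost without each array except Pcl2 shRNA replicate 3 (adjusted p = 0.072 to 0.135) and with quantile normalization, no filter or no eBayes trend (adjusted p = 0.0521 to 0.0577). With the block 2 of the 11 were lower, against 13.8% of all genes.

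Fatty acid oxidation, the breakdown of fatty acids in mitochondria, gave 4 higher and 1 lower of 17, with a median of 0.28, against 4.46% higher and 8.16% lower of all genes. With the replicate block 5 were higher and 2 lower, against 9.97% and 13.8%. Cpt1a, which commits fatty acids to entry into mitochondria, had signals of 339, 557 and 783 in Pcl2 shRNA samples, against 164, 173 and 271 in controls (log2 fold change 1.39, SE 0.30, adjusted p = 0.0124). All Pcl2 shRNA arrays exceeded all controls. Acadm, the medium-chain dehydrogenase, had signals of 1931, 2268 and 2176 in Pcl2 shRNA samples, against 1168, 1279 and 1149.6 in controls (log2 fold change 0.82, SE 0.14, adjusted p = 0.00429).

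The long-chain dehydrogenase Acadl went the other way, with signals of 265, 233 and 348 in Pcl2 shRNA samples, against 516, 592 and 688 in controls (log2 fold change -1.08, SE 0.19, adjusted p = 0.00516). Cpt1a, Acadm and Acadl were called under all 20 alternatives. The carnitine carrier Slc25a20 rose by log2 0.78 (SE 0.18, adjusted p = 0.0195) and the electron carrier subunit Etfb by log2 0.70 (SE 0.16, adjusted p = 0.015). Both were lost without Pcl2 shRNA replicate 1 or 2 (adjusted p = 0.0606 to 0.0802), and Slc25a20 also without control replicate 3 (adjusted p = 0.0528).

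Markers of other cells that such a culture can hold moved with the groups in part. The summed signal of 8 trophectoderm markers was 1116 to 1505 in Pcl2 shRNA and 4965 to 9380 in control samples, and 3 of the 6 tested fell (Cdx2, Krt8 and Krt18), with Cdx2 at background on the 3 Pcl2 shRNA arrays and Gata3 on all 6. Without Krt8 and Krt18, left out after the values were seen, the other 6 summed to 855.1 to 1210.1 in Pcl2 shRNA and 779.1 to 1208.2 in control samples. Tfap2c made up the largest part of that sum, with mean signals of 813 in Pcl2 shRNA and 566 in control samples. It lay higher on all Pcl2 shRNA arrays (log2 fold change 0.51, adjusted p = 0.108). The sum thus says little about the dimmer markers. Of the 6 tested trophectoderm markers 5, Krt8 and Krt18 among them, had a log2 fold change below 0 and 1, Tfap2c, above 0. Eomes gave -1.03 (adjusted p = 0.0992) and Hand1 -0.49 (adjusted p = 0.178), and neither was called. The 9 primitive endoderm markers summed to 612 to 668 in Pcl2 shRNA and 949 to 1277 in control samples, and Afp was at background on all arrays. Of 5 tested 2 fell, Lamb1 (mean signal 395 in Pcl2 shRNA and 729 in control samples) and Dab2 (56.7 and 211). The lower sum came from these genes. Gata4, Gata6 and Foxa2 were not called, with log2 fold changes of 0.0026, 0.03 and -0.05. The 15 fibroblast markers summed to 3803 to 4708 in Pcl2 shRNA and 4159 to 6478 in control samples. Of 11 tested 2 fell (Acta2 and Twist2), and Dcn and Lum were at background on all arrays. Acta2 had a mean signal of 394 in Pcl2 shRNA and 1390 in control samples. Of these 11, 10 had a log2 fold change below 0, and the median was -0.78. Fn1, the brightest marker of this list and the largest part of its sum, was the only one above 0. Its means were 3240 in Pcl2 shRNA and 2671 in control samples (log2 fold change 0.25, adjusted p = 0.444). Of all genes 8.16% fell. The part of these markers, and of the higher embryonic stem cell markers, in the lower lipid gene signals was not tested.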

How the data were processed

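Total RNA was hybridised to Affymetrix mouse GeneChip arrays, per the labels' protocols. For each probe set the authors deposited a linear signal intensity from MAS5 (named in the submitters' processing notes), and the labels name GCOS 1.4 as their analysis software. These values share a trimmed mean of 150.001 (2% off either end) across the 6 arrays, and no further scaling was applied. Other settings, and detection calls, were not used here.

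Of 45101 probe sets, 34945 named 1 gene in the platform annotation, 932 several and 9160 none, and 64 were controls. Symbols were updated through the RefSeq gene table of GRCm38.p6, which held 34741 of the 34945. The scale used was log2(signal + 7), its pseudocount set at the 20th percentile, which understates changes of dim genes. Probe sets with a mean at or above the 40th percentile (a signal of about 20.2) were tested, the brightest per gene, with lmFit and trended eBayes of limma 3.58.1 (R 4.3.3), two-sided, with Benjamini-Hochberg adjustment over 13095 genes. Background was 20.3, the brightest of 27 unspiked bacterial probe sets. The procedure was tested on simulated data. Figures were drawn with matplotlib 3.10.9.

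Members and lists were chosen with earlier results of these data known. Named genes are all members, Mtf2 and, from each list of other lipid genes, those called or else the 2 brightest. Lists were not tested as sets.

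Sample titles carry numbers 1 to 3 in either group, and nothing states what a number marks. Deviations from group means correlated at 0.25 to 0.40 between same-numbered samples and at -0.38 to -0.0012 between others. Deviations within a group cancel for each gene, so the negative values follow from the positive ones and are not separate evidence of pairing. The main fit was unpaired. Samples were paired by number, from this correlation only, in the blocked fit and in the same-number comparisons. The blocked fit is given where it changes a call.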

Additional observations from a re-analysis of the deposited data

How the results depend on the processing

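Over 20 alternatives (scaling, pseudocount, signal filter, choice of probe set, variance model, array weights, a floor at background, the replicate block and each array left out), none of the 35 genes reversed a called direction. Of 700 values, 672 kept their side of the threshold, 19 lost a call and 9 gained one, and 25 uncalled values changed sign. The count of fatty acid genes called, 5 in the fit as reported, was 3 with no signal filter and 3 with no eBayes trend, and 3 to 5 without 1 array. The count of sterol genes, 1, was 0 with the mean of probe sets (Sc5d, adjusted p = 0.134). With the replicate block 3113 genes changed in all, with 1 regulator, 3 sterol genes and 7 fatty acid genes, among them Srebf2, Fdps, Sqle, Fasn and Elovl6, and it changed no other call of the 35. The count over all genes, 1652, was 979 to 1598 without 1 array, lowest without Pcl2 shRNA replicate 2. Median centring moved the median log2 fold change of all genes by -0.06 and quantile normalization by 0.0019. With 3 arrays per group a change the size of the sterol median (-0.30) was not resolved, as for Hmgcs1 (95% interval -0.77 to 0.16). The causes of these differences were not tested.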
